A study of Mus musculus with 3 samples.

Results

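Nonclassical monocytes are blood monocytes that crawl along the inner wall of small vessels and are best known for patrolling the endothelium. They arise from classical Ly6C-high monocytes under the nuclear receptor Nr4a1, and in the mouse they are told from them by low Ly6c2 and Ccr2 and by Cx3cr1, Spn (CD43), Fcgr4, Cd300e, Ace and Treml4. Tissue macrophages of the C1q-expressing kind are the third mononuclear phagocyte compared here.

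The cells came from whole tumors of 3 TH-MYCN mice, a neuroblastoma model in which the tyrosine hydroxylase promoter drives human MYCN in neural crest cells. All 3 mice were heterozygous for the transgene, and the animal of tumor 1 was 62 days old, that of tumor 2 79 and that of tumor 3 63. Dissociated, unsorted cells were run on 10x Chromium 3′ v3.1, and no treated group, no transgene-free tissue and no blood were among the samples used here. Nonclassical monocytes were 415 of the 5650 kept cells, chosen by measured counts. A member had to have at least 2 of 5 pan-myeloid genes (Csf1r, Tyrobp, Fcer1g, Ctss, Cd68), C1q genes under 0.3% of its unique molecular identifiers (UMIs), fewer than 3 of 5 neutrophil genes, at least 2 of the 6 markers Cd300e, Fcgr4, Ace, Ear2, Treml4 and Pecam1, and more of these than of 6 classical markers (Vcan, F13a1, Ly6c2, Ccr2, Chil3, Fn1).

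The members were spread unevenly over the tumors. There were 333 in tumor 1, 34 in tumor 2 and 48 in tumor 3. They made up 17.4% of the 1914 kept cells of tumor 1 (95% exact binomial interval 15.7 to 19.2), 2.79% of the 1221 of tumor 2 (1.94 to 3.87) and 1.91% of the 2515 of tumor 3 (1.41 to 2.52), with a mean of 7.36% ± 8.70 (SD, n = 3). Tumor 1 therefore lay far above the other two, and it held 119 cells with the tumor-cell pattern against 636 and 1720. Counted among the 3 mononuclear phagocyte classes alone, the shares were 49.1%, 40.5% and 42.1% (43.9% ± 4.59, SD, n = 3), and their intervals overlapped. All intervals cover counting error only.

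**Figure D1:**
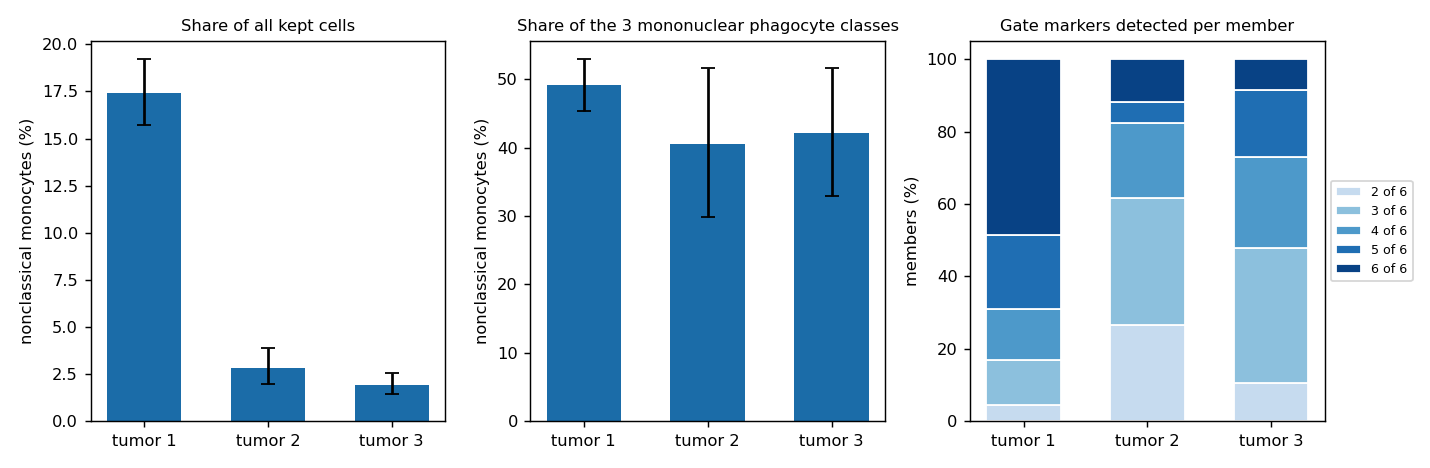
Nonclassical monocytes per tumor as a percent of all kept cells (left) and of nonclassical, classical and C1q cells together (middle), with 95% exact binomial intervals, and the percent of members with 2 to 6 of the gate markers (right). The share of all cells is 17.4% in tumor 1 and under 3% in tumors 2 and 3, while the shares of phagocytes lie between 40.5% and 49.1%.

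Depth was higher in tumor 1. The median member had 7026 UMIs there, 3420 in tumor 2 and 3827 in tumor 3, and the summed counts per tumor were 2922087, 129371 and 192762 UMIs. Median mitochondrial shares were 3.15%, 4.15% and 3.43%. Libraries 1 and 2 shared 3 kept cell barcodes, libraries 2 and 3 shared 1, and no member's barcode was shared.

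The gate genes describe the choice and were not tested. Fcgr4, the mouse activating receptor for IgG2 complexes, was the most abundant of the 6 markers, at 1279, 1314 and 1147 CPM in tumors 1, 2 and 3 (CPM being UMI counts scaled to the same total in each summed sample). Cd300e, an activating immune receptor, stood at 531, 410 and 498 CPM and Ear2, an eosinophil-type ribonuclease, at 531, 456 and 431. Ace, the angiotensin-converting enzyme, ran 529, 240 and 228, Treml4 441, 224 and 306, and Pecam1, the adhesion molecule CD31 of endothelium and leukocytes, 349, 201 and 213. The last 3 were thus highest in tumor 1, whereas Fcgr4 varied little between tumors. In all, 170 members had all 6 markers and 29 had the minimum of 2, and 221 had none of the 6 classical markers. Of the classical genes, Ly6c2 and F13a1 had no UMI in members of tumors 2 and 3, while Chil3 reached 928 CPM in tumor 2 against 130 and 46.7, with 120 UMIs in 10 cells.

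Cells lay close to the gate on both sides. Just inside it, 15, 9 and 5 of the 333, 34 and 48 members had exactly 2 markers. Just outside it, 30, 6 and 10 cells had 1 marker and no classical marker, and 35, 0 and 2 had as many classical as nonclassical markers. Cx3cr1, Spn, Itgal and Adgre4 together stood at 341, 452 and 755 CPM in the members with exactly 2 markers. They stood at 282, 506 and 123 CPM in the cells with 1 marker. Members with no C1q UMI had 2137.5, 1220.5 and 1801.5 CPM, and the 35 tied cells of tumor 1 had 1118. Members with 2 markers were thus near the cells outside in tumors 1 and 2. Beyond the C1q limit, 2, 5 and 1 cells that met every other condition had C1q genes at 0.3% to under 0.5% of UMIs, and 36, 16 and 18 had 0.5% or more. With a C1q limit of 1% in place of 0.3%, the members would be 340, 48 and 53. Cells with nonclassical markers were thus also found in the C1q class. After each cell was thinned to 1000 UMIs, Fcgr4 was seen in 14.9%, 36.6% and 22.4% of C1q cells and in 60.0%, 55.9% and 50% of members.

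RNA of other cells in the members was measured with fixed marker lists. The summed endothelial list stood at 150, 30.9 and 25.9 CPM in members, against 5881 CPM in the endothelial cells of tumor 1. The tumor-cell list stood at 69.5 CPM in tumor 1 and at 997 and 1095 CPM in tumors 2 and 3, and at least 4 of its 12 genes were seen in 3, 9 and 20 members. The fibroblast and pericyte list stood at 1855 CPM in tumor 1 against 30.9 and 62.3, and Dcn gave 1540 UMIs from 22 cells there, 750 of them from 1 cell. The erythroid list stood at 2513 CPM in tumor 1 against 108 and 62.3. At least 4 genes of 1 of 7 other-cell lists (endothelial, T and NK, B, platelet, fibroblast and pericyte, conventional and plasmacytoid dendritic) were seen in 37 members of tumor 1 and in none of tumors 2 and 3, and both comparisons were also made without such cells. At least 2 genes of 1 of 6 lists, tumor-cell genes included, were seen in 188, 26 and 41 members, and without them 145, 8 and 7 were left, a mean share of 2.84%. The part of tumor-cell and erythroid RNA in the results was not tested.

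For the comparison with C1q macrophages, the question is which genes set patrolling monocytes apart from the resident-type macrophages of the same tumors. Sums of raw counts per tumor were compared, from 333, 34 and 48 members and from 102, 41 and 58 C1q macrophages. Of 6237 genes tested, 613 were higher and 487 lower in nonclassical monocytes, which is 9.83% and 7.81%, by edgeR's quasi-likelihood test with tumor as a term and adjusted p under 0.05. Without the tumor term that pairs the sums of 1 animal (no replicate block) the counts were 136 and 151, and without tumor 1 they were 190 and 218 of 3435 genes. The classes were cut from the same cells, so the p-values do not say that the classes were found independently. Nor do they measure how evenly a difference held over the 3 tumors. Tumor 1 gave 2922087 UMIs of members against 129371 and 192762, and a gene could pass with 1 tumor running the other way.

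Known nonclassical genes outside the gate were higher together. Of 22 listed genes, 21 were tested and 18 were higher, none lower, with a median log2 fold change of 2.12 against 0.06 over all genes tested. Without the tumor term 12 of the 21 were higher. The list was drawn up with earlier results of these data known. S1pr5, the sphingosine-1-phosphate receptor that monocytes use to leave the marrow, was at 73.6, 54.1 and 46.7 CPM in members and at 4.29, 0 and 0 in C1q macrophages (log2 fold change 4.39 ± 0.59 SE, edgeR adjusted p 1.7e-05). The groups did not overlap. Eno3, the muscle-type enolase, stood at 268, 178 and 275 CPM against 25.7, 4.4 and 0 (3.91 ± 0.39, edgeR adjusted p 4.8e-07), again without overlap. Smpdl3b, Pglyrp1, Clec4e, Ceacam1, Slpi, Hp and Dusp16 were, with Itgal, also among the 10 largest rises, from 4.19 to 3.18 on the log2 scale. Pglyrp1 and Slpi encode antibacterial proteins and Clec4e a receptor for mycobacterial glycolipid. Clec4e and Hp are also listed as classical genes. In thinned cells of tumor 1, Clec4e was seen in 65.9% of neutrophils and 24.6% of members, and Hp in 58.2% and 27.4%. Pglyrp1 was seen in 47.3% and 26.5%, and Slpi in 18.6% and 7.08%. Smpdl3b and Ceacam1 ran the other way, at 0.455% and 2.27% against 16.3% and 16.9%. Dusp16 was nearly level in tumor 1, at 24.55% against 25.85%, and lower in neutrophils of tumors 2 and 3 (10.4% and 0% against 26.5% and 20.8%). Slpi was also nearly level in tumor 3, at 6.67% of only 15 neutrophils and 8.33% of members.

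Promoters of the listed nonclassical genes, called or not, were searched for binding letters of the factors of this lineage, as RefSeq gives them for GRCm38.p6 (250 bases before to 50 after the start). The letters GGAAGTG of PU.1-type ETS factors (encoded by Spi1), on either strand, were in 4 of the 19 promoters (21.1%) of the 16 matched genes of 22, and in 11% of all 32851 promoters. The Nr4a letters AAGGTCA were in 0 of the 19 and in 4.72% of all, and the C/EBP letters TTGCNNAA in 1 of the 19 (5.26%) and 10.8%. The 3 promoters below are those of single-promoter genes with a match, in capitals. They are S1pr5 at chr9:21248394-21248693 on the minus strand, Spn at chr7:127137774-127138073 on the minus strand and Adgre4 at chr17:55749734-55750033 on the plus strand, which also holds the C/EBP letters. A match is a description of the sequence only.
S1pr5: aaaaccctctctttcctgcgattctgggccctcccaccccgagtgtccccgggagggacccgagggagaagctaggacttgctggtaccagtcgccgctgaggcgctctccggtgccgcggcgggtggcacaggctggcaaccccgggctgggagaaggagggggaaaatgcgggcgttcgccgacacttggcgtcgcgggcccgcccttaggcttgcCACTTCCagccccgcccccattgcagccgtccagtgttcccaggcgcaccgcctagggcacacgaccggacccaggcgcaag
Spn: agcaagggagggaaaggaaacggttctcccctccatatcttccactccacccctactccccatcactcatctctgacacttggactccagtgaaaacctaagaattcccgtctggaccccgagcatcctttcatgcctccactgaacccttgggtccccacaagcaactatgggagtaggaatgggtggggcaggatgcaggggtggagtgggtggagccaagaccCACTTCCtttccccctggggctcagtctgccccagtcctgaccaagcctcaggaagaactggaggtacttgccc
Adgre4: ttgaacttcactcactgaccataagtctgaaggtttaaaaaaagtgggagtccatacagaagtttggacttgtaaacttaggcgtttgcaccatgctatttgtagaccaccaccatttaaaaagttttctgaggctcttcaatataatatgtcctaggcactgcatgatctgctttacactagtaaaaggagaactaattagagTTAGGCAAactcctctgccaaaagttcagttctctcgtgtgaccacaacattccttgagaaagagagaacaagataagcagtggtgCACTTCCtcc

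Adhesion molecules followed the same direction. Of 22 tested adhesion and patrolling genes, 15 were higher and none lower, with a median log2 fold change of 0.90. Without the tumor term 3 were called. Itgal, the LFA-1 alpha chain with which patrolling cells hold on to endothelium, was at 866, 394 and 581 CPM against 116, 0 and 40.2 in C1q macrophages (log2 fold change 3.44 ± 0.34, edgeR adjusted p 4.8e-07). Spn, the sialomucin CD43, was at 346, 170 and 270 against 36.0, 44.0 and 6.69 (3.16 ± 0.34, edgeR adjusted p 1.5e-06). Every member value of both genes lay above every macrophage value. Itgb2, the LFA-1 beta chain, differed less, at 688, 564 and 337 against 354, 255 and 211 CPM (0.83 ± 0.19), and its groups overlapped. Itga4, Ceacam1, Coro1a and Lsp1 were among the other 12 higher genes, with log2 fold changes of 2.15, 3.27, 1.36 and 2.56. Ceacam1, Itgal and Spn are also in the nonclassical list, so the lists are not separate counts.

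The share of cells with a UMI, at 1000 UMIs a cell, gave the same order. Itgal was seen in 55.7%, 35.3% and 43.8% of members, in 4.05%, 0% and 1.72% of C1q macrophages and in 3.82% of B cells of tumor 1. Eno3 was seen in 20.3%, 14.7% and 25% of members, in 1.35%, 0% and 0% of C1q macrophages and in 0% of B cells. Itgal was not particular to the members, being seen in 44.6%, 12.5% and 13.3% of neutrophils and in 16.7% of classical monocytes of tumor 1, so that the neutrophils of tumor 1 lay above the members of tumors 2 and 3. Eno3 was seen in 0.455%, 0% and 0% of neutrophils and in 0.837% of those classical monocytes. Thinning left out 8 of 333 members and 28 of 102 C1q macrophages of tumor 1.

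**Figure D2:**
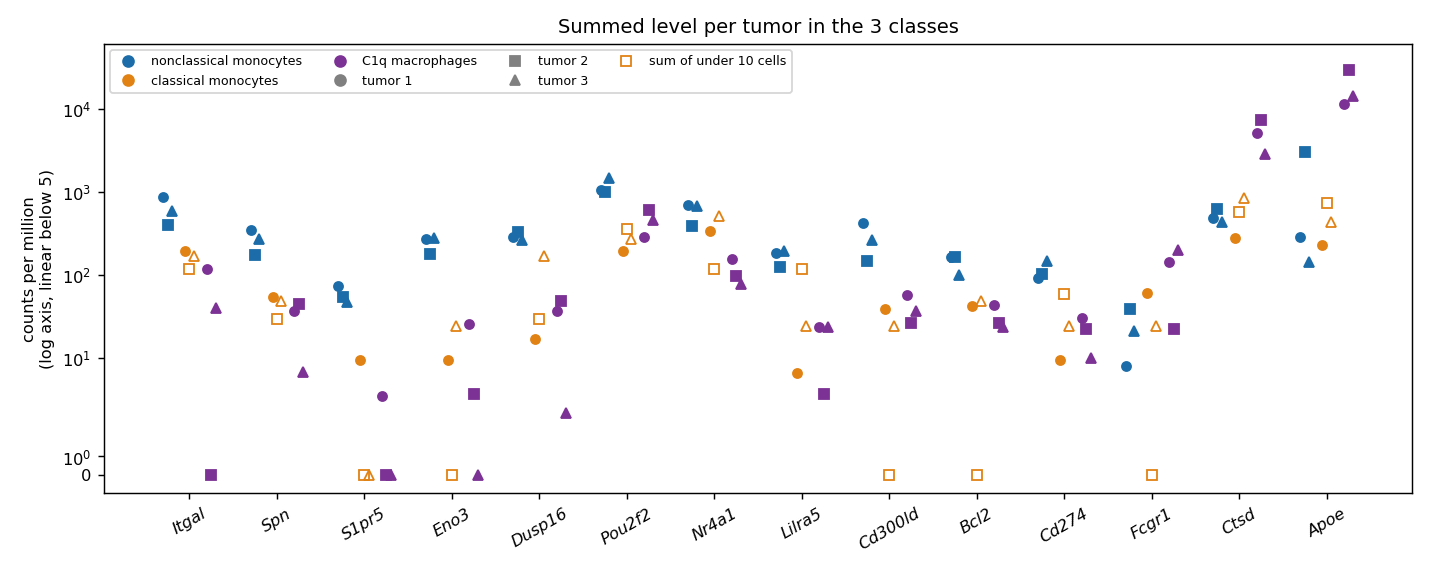
Summed level of 14 genes in each tumor (circle, square and triangle for tumors 1, 2 and 3) in nonclassical monocytes, classical monocytes and C1q macrophages, in CPM on an axis that is logarithmic above 5. Open symbols are classical sums of 9 and 8 cells, and S1pr5, Eno3 and Itgal lie higher in all 3 nonclassical sums than in any other filled symbol.

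Among transcription factors, 14 of 27 tested were higher and 5 lower, with a median log2 fold change of 0.79. Without tumor 1 the counts were 6 and 3 of 20, without tumor 3 11 and 3 of 28, and without the tumor term 4 and 2 of 27. Nr4a1, required for this lineage, was at 688, 387 and 669 CPM against 153, 96.8 and 77.0 in C1q macrophages (log2 fold change 2.30 ± 0.23, edgeR adjusted p 6.5e-07). Cebpb, an activator of Nr4a1, stood at 2293, 332 and 1432 CPM against 516, 79.2 and 398 (1.92 ± 0.17), with its lowest value of both classes in tumor 2. Pou2f2, the octamer factor Oct-2, was at 1047, 989 and 1473 CPM against 286, 603 and 452 (1.36 ± 0.20). Each of the 3 genes was higher in members in every tumor. Bcl6, Klf13, Klf4, Klf2, Ets1, Spi1 and Id2 were also higher, by 2.40, 1.35, 1.23, 1.03, 1.87, 0.91 and 1.08 on the log2 scale. The lower factors included Maf, which drives macrophage identity (-1.85 ± 0.24), and Cebpa (-1.30 ± 0.31), Irf8 (-0.91 ± 0.23) and Batf3 (-1.32 ± 0.41).

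Tissue macrophage genes were lower almost throughout. Of 25 tested, 23 were lower and none higher, with a median of -3.54, and 23 were lower also without the tumor term. Ctsd, the lysosomal protease cathepsin D, was at 482, 618 and 425 CPM in members against 5048, 7343 and 2865 (-3.35 ± 0.18, edgeR adjusted p 1.7e-10). Apoe, the lipid carrier, was at 286, 2999 and 140 CPM against 11233, 29189 and 14253 (-5.03 ± 0.37), and 68.8% of its UMIs in members of tumor 2 came from 1 cell. Folr2 had no UMI in members against 96 in C1q macrophages, which is at least 61.3-fold lower on a floor of 3 counts over all members. Mmp12, the macrophage elastase, had 3 UMIs in members and 389 in macrophages, a ratio of 249 with a counting interval of 84.4 to 1210. Ccl8, a chemokine, had 1 UMI against 156, a ratio of 299 (52.9 to 11885). Cd5l, Spp1, Atp6v0d2, Pf4, Trem2, Igf1, Il18bp and Rab3il1 completed the 10 largest falls, from -7.13 to -5.16 on the log2 scale.

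**Figure D3:**
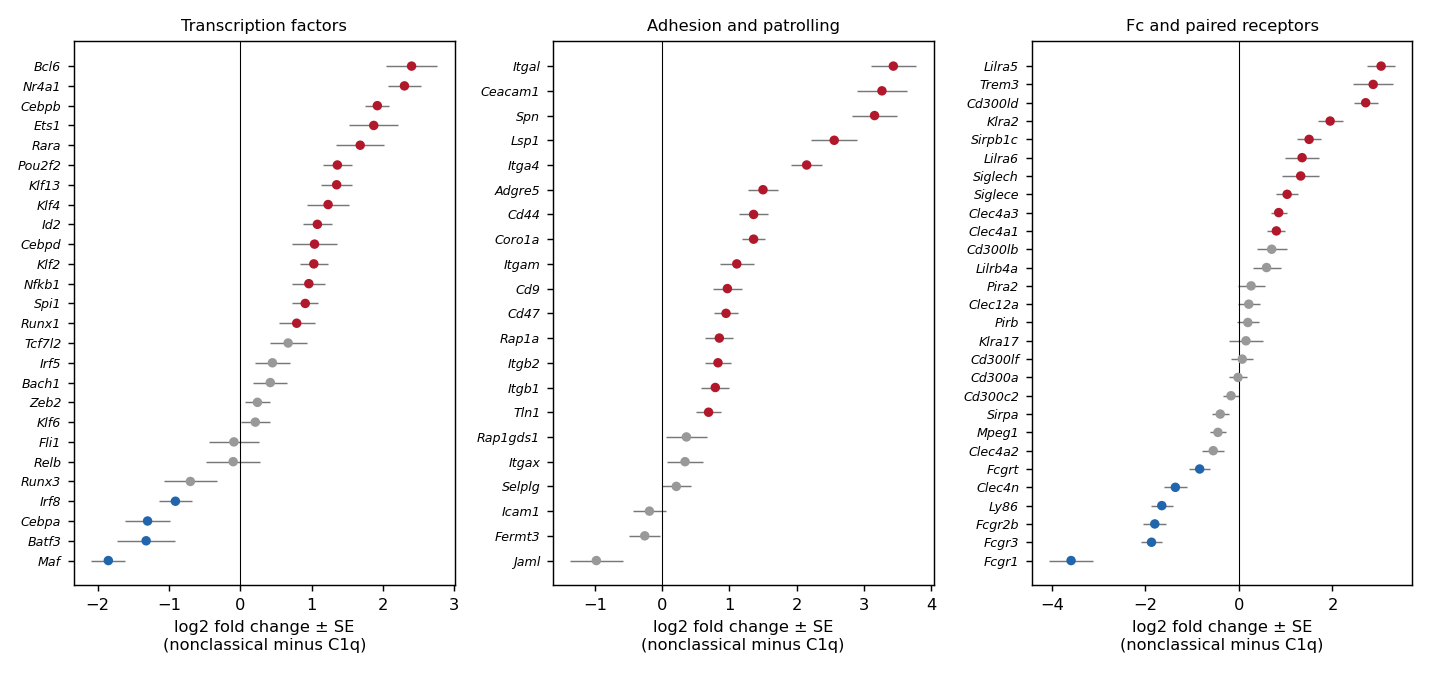
Log2 fold change with its standard error of nonclassical monocytes minus C1q macrophages for tested transcription factors, adhesion genes and Fc and paired receptors. Red points passed the threshold higher, blue points lower and grey points did not pass, and Fcgr1 at -3.59 stands at the low end of its panel.

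Of 28 tested Fc and paired immune receptors, 10 were higher and 6 lower, against 5 and 3 without the tumor term and 6 and 5 of 24 without tumor 1. Fcgr1, the high-affinity IgG receptor, was at 7.87, 38.7 and 20.8 CPM against 142, 22.0 and 197 in C1q macrophages (log2 fold change -3.59 ± 0.47, edgeR adjusted p 1.5e-05). Tumor 2 ran the other way, but its sums held only 129371 and 227172 UMIs, so these levels rest on few counts. Fcgr2b, the inhibitory IgG receptor, and Fcgr3 were lower by -1.80 ± 0.25 and -1.87 ± 0.23. Among the higher ones, Lilra5, an activating leukocyte receptor, stood at 183, 124 and 192 CPM against 23.1, 4.4 and 23.4 (3.04 ± 0.30) and Cd300ld at 423, 147 and 259 against 56.6, 26.4 and 36.8 (2.71 ± 0.26). Trem3, Klra2 and Siglece were higher by 2.87, 1.95 and 1.03 on the log2 scale. Siglech, also higher (1.32), is a plasmacytoid dendritic cell gene, and the summed list of that cell type stood at 543, 433 and 327 CPM in members.

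Survival, checkpoint and cytokine genes held smaller sets. Of 15 survival genes tested, 5 were higher and none lower (3 without the tumor term, and 8 of 18 without tumor 2), among them the anti-apoptotic Bcl2 at 162, 162 and 98.6 CPM against 42.9, 26.4 and 23.4 (log2 fold change 1.96 ± 0.27). Cd274, which encodes PD-L1, was at 92.1, 101 and 145 CPM against 30.0, 22.0 and 10.0 (2.03 ± 0.35, edgeR adjusted p 0.00029), with no overlap between the groups. Il1b, the inflammatory cytokine, was at 849, 1283 and 1468 against 401, 299 and 274 CPM (1.70 ± 0.22), also without overlap. Of 14 checkpoint and suppressive genes, 2 were higher and 6 lower (1 and 1 without the tumor term, 1 and 3 of 10 without tumor 1), the latter including Lgals9, or galectin-9 (-2.52 ± 0.42), and Entpd1, the ectonucleotidase CD39 (-1.87 ± 0.31). Of 21 cytokines and chemokines, 4 were higher and 5 lower (1 and 2 without the tumor term, and 1 and 2 of 12 without tumor 1). Cxcl16, a chemokine, was at 58.2, 30.9 and 41.5 CPM against 416, 321 and 462 (-3.17 ± 0.25). Il12b passed the threshold, but 109 of its 114 UMIs in tumor 1 were in 1 cell. Il10 passed too (edgeR adjusted p 0.0212), with 111, 0 and 2 UMIs, 41 of them in 1 cell of tumor 1.

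Antigen presentation genes were lower than in macrophages. Of 16 tested, 9 were lower and none higher, with a median log2 fold change of -0.88, and none passed without the tumor term. H2-Ab1, a class II beta chain, was at 1366, 557 and 721 CPM against 4843, 590 and 3494 (-1.61 ± 0.26, edgeR adjusted p 0.00012), so in tumor 2 the classes were nearly level. Class I genes H2-D1 and B2m differed by 0.04 and 0.08 and did not pass.

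Class II was uneven among the members themselves. At 1000 UMIs a cell, 59.4%, 82.4% and 68.8% of members had no UMI of Cd74, H2-Aa, H2-Ab1 or H2-Eb1. At least 10 such UMIs were found in 67, 3 and 6 members, and these held 91.1%, 93.4% and 84.6% of the members' class II UMIs. Other classes were uneven too. No such UMI was seen in 23.0%, 73.2% and 39.7% of C1q macrophages and in 36.0% of classical monocytes of tumor 1. In tumor 1, Cd74 was seen in 18.5% of members with no classical marker, 40.0% with 1 and 79.4% with at least 2, while Itgal went from 61.2% to 55.0% and 44.1%. Nonclassical genes did not move together over this split. Cx3cr1 and Gngt2 fell too, but Spn rose from 26.75% to 32% and 36.76%. Adgre4 was nearly level, at 33.1%, 29% and 30.9%. Markers were counted at full depth, and the median raw depth of these members was 5579, 7780 and 11657 UMIs, so depth moved with the split, and its part was not tested.

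**Figure D4:**
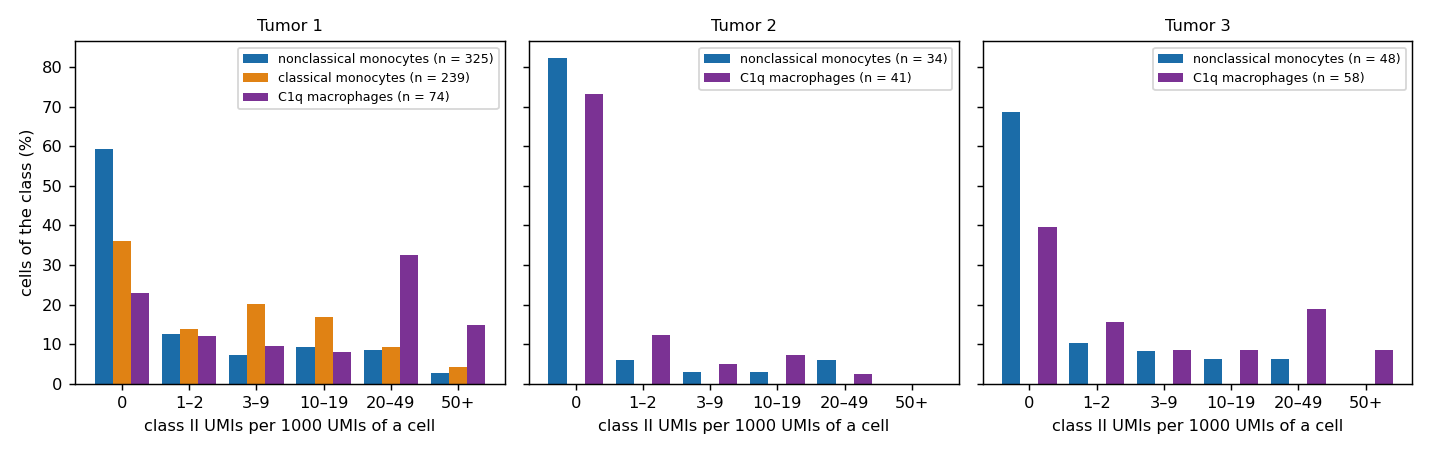
Percent of cells of each class by the number of class II UMIs (Cd74, H2-Aa, H2-Ab1 and H2-Eb1) after thinning to 1000 UMIs, per tumor, without the classical classes of 9 and 8 cells. Most members are at 0, with 59.4% of them in tumor 1, 82.4% in tumor 2 and 68.8% in tumor 3.

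The comparison with classical monocytes asks what separates the 2 monocyte states. It rests largely on tumor 1, since the classical class held 243 cells there but 9 and 8 in tumors 2 and 3, under the minimum of 10, so the lone classical sum was assumed to vary like the other classes. In tumor 1 the classical class also carried plasmacytoid dendritic cell genes, at 2746 CPM against 543 in members, with at least 4 of these genes in 66 cells. Of 6237 genes, 239 were higher and 208 lower in nonclassical monocytes (3.83% and 3.33%) by the same edgeR test. Adding the sums of 9 and 8 cells, a choice made after the data were seen, gave 194 and 100 of 4010 genes, leaving out the tumor term 3 and 4, and tumors 2 and 3 alone, with those same small sums, 3 and 13 of 3114. Leaving out cells with 4 genes of another type gave 238 and 169. That step took out 91 of the 243 classical cells of tumor 1, so similar totals do not mean the same genes. Of the genes called with all cells, 380 were tested again, 354 of these kept their sign and fewer were called again. Both comparisons share the nonclassical sums, so a gene called in both is no second piece of evidence.

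Nonclassical genes were again higher in 18 of 21, with a median log2 fold change of 2.20 against 0.03 over all genes, and none was lower. With the small sums added 15 of 19 were higher, and without the tumor term none of 21 was. Of all the lists, 1 classical gene and 1 cytokine gene passed without that term. Eno3 was at 9.34 CPM in classical monocytes of tumor 1, with 0 and 24.2 in the small sums (log2 fold change 4.98 ± 0.52, edgeR adjusted p 4.5e-06). Cx3cr1, the fractalkine receptor, was at 428, 209 and 405 CPM in members and at 107 in classical monocytes of tumor 1, with 88.5 and 24.2 in the small sums (2.18 ± 0.34), but it did not differ detectably from C1q macrophages at 442, 96.8 and 278 CPM (0.29, edgeR adjusted p 0.457). Nr4a1 was higher by 1.08 ± 0.32 (edgeR adjusted p 0.0454), and this was lost with the added small sums (0.0936) and without cells carrying other types' genes (0.231). Dusp16, a phosphatase of JNK and p38, was higher by 4.13 ± 0.46 and Pparg, the lipid-sensing nuclear receptor, by 3.66 ± 0.37. Pparg stood at 152, 124 and 150 CPM against 10.8 in classical monocytes of tumor 1, with 0 and 24.2 in the small sums. Smpdl3b, Pdgfb, Lilra5, Fcrl5 and Slc12a2 were also among the 10 with the largest rise, and passed again without cells carrying other types' genes. Ighg2b, an immunoglobulin heavy chain gene with 46 UMIs against 0 (at least 13.5-fold higher on a floor of 3 counts over the class), had all 22 of its UMIs in tumor 1 in 1 cell, and its call was lost without those cells (edgeR adjusted p 0.74). Cxcl14 was also among them, with 57 UMIs against 3, a ratio of 16.7 (5.45 to 83.6).

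Classical genes outside the gate were lower in 8 of 19 and higher in none. Thbs1, thrombospondin 1, was at 31.1, 38.7 and 62.3 CPM against 350 in classical monocytes of tumor 1 (log2 fold change -3.55 ± 0.31, edgeR adjusted p 7.5e-07), and the small sums stood at 620 and 121. Lyz2, S100a10 and Cd14 fell by 1.23, 2.16 and 1.34 on the log2 scale. Interferon-stimulated genes were lower in 7 of 24 and higher in none, with a median of -0.89, and 12 of 23 were lower without cells carrying other types' genes, 13 of 29 without tumor 2, 4 of 15 with the small sums, 1 of 24 by DESeq2 and none without the tumor term. Among the 7 were Slfn5 (-2.34), Irf7 (-1.65) and Bst2 (-2.54). Bst2, also a plasmacytoid dendritic cell gene, was lost without cells carrying other types' genes (-0.88, edgeR adjusted p 0.153), and so was Irf8, a dendritic cell factor, which went from -2.14 to -0.46 (edgeR adjusted p 0.6). Mmp8, Clec10a, Ramp1, Scimp, Jaml, Cxcl2 and Emp1 were also among the 10 largest falls, from -3.35 to -2.50. In the counts by DESeq2, genes without an adjusted p (2781 of 6237 here) count as not called. None of 16 antigen presentation genes passed, by edgeR or DESeq2, but 4 were lower with the small sums added, H2-Ab1 among them (-1.70, edgeR adjusted p 0.0231), 3 without cells carrying other types' genes, and 6 of 18, with 1 higher, without tumor 2.

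**Figure D5:**
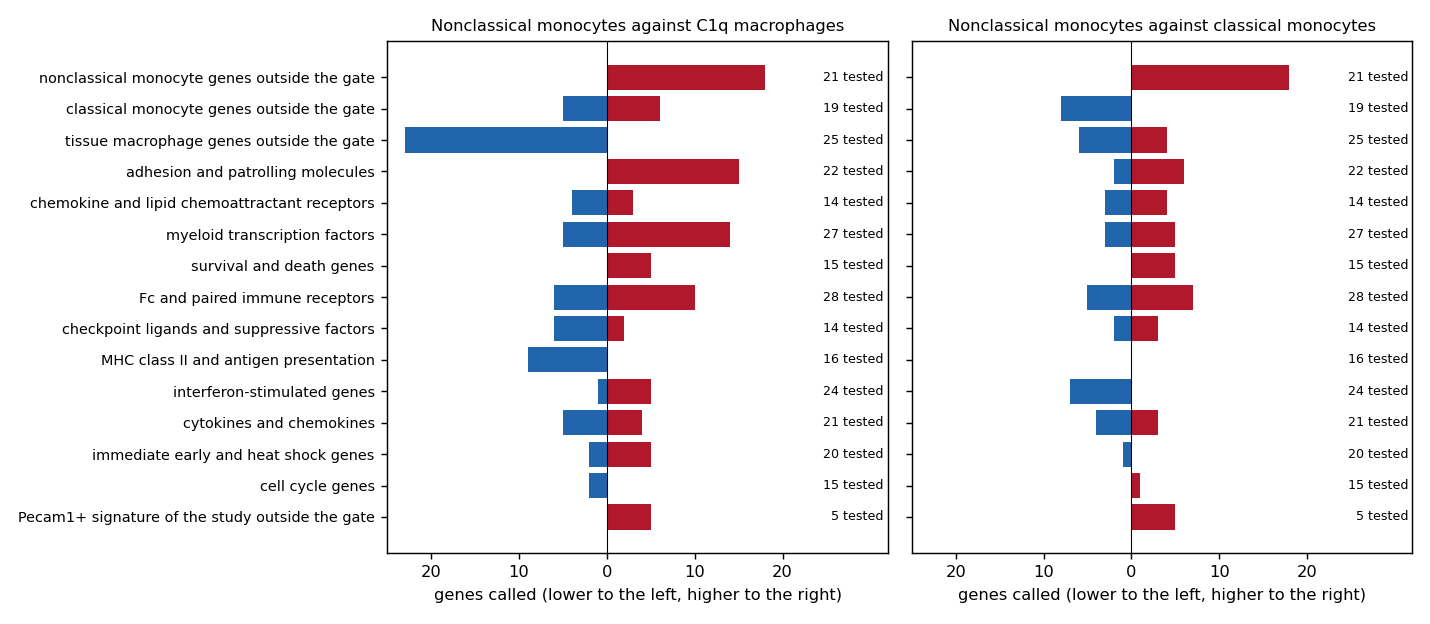
Number of genes of 15 lists called higher (right of 0) and lower (left of 0) in nonclassical monocytes than in C1q macrophages (left panel) and classical monocytes (right panel), with the number tested. Nonclassical genes were higher in 18 of 21 in both panels, and tissue macrophage genes lower in 23 of 25 against C1q macrophages.

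Cd274 was higher than in classical monocytes too, at 9.34 CPM in tumor 1 (log2 fold change 3.43 ± 0.48, edgeR adjusted p 0.0001). The 5 genes of the study's Pecam1+ signature outside the gate, Cd82, Il10, Cd274, Pglyrp1 and Pag1, were higher in both comparisons (without the tumor term 3 of 5 against C1q macrophages and 0 of 5 against classical monocytes, by DESeq2 3 of 5 in each, and without tumor 1 3 of 4 against C1q macrophages), but they had been chosen on these samples and are not independent evidence.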

How the data were processed

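Single-cell 3′ libraries of 3 tumors were analysed. The deposited files hold raw UMI counts per gene and barcode, and the submitters' processing notes name Cell Ranger 3.1.0, Seurat 3.1.5 and mm10. The authors also deposited, for the cells left after their filters, the natural log of 1 plus a count corrected for ambient RNA, from which the corrected counts were recovered. These normalized files gave only the list of kept barcodes, and the corrected counts 1 alternative. The authors removed doublets before deposit, and no doublet caller was run here.

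Raw counts of kept cells were summed per tumor and class (at least 10 cells, 7 sums) and compared with edgeR 4.0.16 (quasi-likelihood test, class plus tumor, filterByExpr, TMM, Benjamini-Hochberg, threshold 0.05) in R 4.3.3. The 25 gate genes stayed in library sizes but were not tested. DESeq2 1.42.0 was an alternative. Against classical monocytes it gave no adjusted p for 2781 of 6237 genes, and those count as not called. Tumor is a term because the classes of a number come from the same animal. Deviations of nonclassical and C1q sums from their class means correlated at 0.601, 0.295 and 0.307 within tumors 1, 2 and 3, over genes, and at -0.395 to 0.145 between tumors. For each gene the deviations of a class over 3 tumors sum to 0, so the values between tumors are no independent baseline. The part of depth and ambient RNA in these correlations was not tested.

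Genes were named by size (up to 10 a direction past the threshold, in the same direction in 3 of 3 tumors and with at least 50 CPM in the higher class), or as members of the gene lists. Against classical monocytes, the direction in tumors 2 and 3 came from the sums of 9 and 8 cells, which the fit left out. Members, lists and tests were chosen with earlier results of these data known. Of the listed genes, 4 were not analysed here and some are counted but not reported here by name. Kept cells had medians of 4283, 1594 and 1816 UMIs. Python 3.11.15 was used for gating and thinning.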

Additional observations from a re-analysis of the deposited data

Results flagged for a closer look

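Barcodes that the authors left out also met the gate, which is a signal in data outside the comparisons. In tumor 1, 7 of 1343 removed barcodes did so, in tumor 2 5 of 3106 and in tumor 3 4 of 3523. Their median depth was 52664, 9851 and 3368 UMIs, and 2, 3 and 1 of them had at least 20% mitochondrial UMIs, with medians of 4.79%, 27.8% and 7.86%. They entered no comparison. With 3 tumors, outlying samples were not tested for.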

How the results depend on the processing

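The mean share of members ran from 2.35% to 10.1% with 1 tumor left out, within the SD of 8.70, and was 2.84% (from 7.36%) without cells of 2 other-type genes. Counts of called genes moved more, and the number of genes tested moved with the setting. It was 6237 in the main fit, 1660 in thinned cells and 16800 with no filter on low counts. Without tumor 1 it was 3435, without tumor 2 9983 and without tumor 3 10036. Sums of at least 5 cells left 4010, 3719 once cells with 4 genes of another type were out, and 3114 in tumors 2 and 3 alone. DESeq2 gave no adjusted p for 2781 genes against classical monocytes, and those count as not called. Without the tumor term that pairs the sums of 1 animal (no replicate block), 3 genes were higher and 4 lower than in classical monocytes, and 136 and 151 than in C1q macrophages. DESeq2 gave 72 and 29, and 249 and 270. Thinned cells gave 94 and 71, and 212 and 164. With no filter on low counts 323 genes were lower than in classical monocytes. Leaving out 1 tumor gave 274 to 446 higher and 300 to 454 lower than in classical monocytes, the larger counts without tumor 2, and 190 to 964 higher and 218 to 644 lower than in C1q macrophages, the smaller without tumor 1. Other settings were chosen after seeing the data. Sums of at least 5 cells gave 100 lower than in classical monocytes and 318 lower than in C1q macrophages, and 90 against classical monocytes once cells with 4 genes of another type were left out too. In tumors 2 and 3 alone they gave 3 and 13, and 110 and 133. The causes were not tested.

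Against classical monocytes, log2 fold changes turned sign for Ceacam1 (-0.22), Fpr1 (-0.93), Ifi204 (0.04), Ighm (1.26) and Tcf4 (0.40) in tumors 2 and 3 alone, and for Col3a1 (0.46), Hvcn1 (2.61), Ighm (0.55), Igkc (0.29), Rnase6 (0.84) and Tcf4 (0.24) without cells of 4 other-type genes. With both choices Ighm (1.04), Igkc (0.35), Rnase6 (0.52) and Tcf4 (0.62) turned. Hbb-bs (-0.13) turned without the replicate block and Ighg2b (-0.15) with the authors' corrected counts. Against C1q macrophages, Acta2 (-0.04) and Col1a2 (-0.96) turned with DESeq2. Not run, because too few cells or sums were left, were the fits against classical monocytes without tumor 1 and with only 2 classes, and both fits without cells of 2 other-type genes.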

Other observations

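Counts for the remaining gene groups follow, beside 9.83% of all genes higher and 7.81% lower against C1q macrophages, and 3.83% and 3.33% against classical monocytes. Against C1q macrophages, 5 of 24 interferon-stimulated genes were higher and 1 lower (edgeR). Ifitm6, Ifitm3 and Ifitm2, which encode membrane proteins that restrict viral entry, were higher by 3.07, 1.41 and 1.02 on the log2 scale. Of 14 chemoattractant receptors, 3 were higher, among them the formyl peptide receptors Fpr2 (1.94) and Fpr1 (1.56), and 4 were lower, among them C3ar1 (-3.96), Ccr1 (-2.89) and Cmklr1 (-1.57). Of 15 cell cycle genes none was higher and 2 were lower, Mki67 (-1.69) and Cenpa (-1.10). Of 20 immediate early and heat shock genes 5 were higher and 2 lower, and 10 and 2 both without tumor 2 and without cells carrying other types' genes. Of 19 classical monocyte genes 6 were higher and 5 lower, with Clec4e, Hp and Plac8 higher by 3.57, 3.18 and 2.62. Without the tumor term (no replicate block) the higher and lower counts were 1 and 0 for the interferon-stimulated genes, 2 and 1 for the receptors, 0 and 0 for the cell cycle and immediate early genes and 1 and 2 for the classical genes.

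Against classical monocytes, 5 of 15 survival genes were higher, Bcl2 (1.95), Bcl2a1a (2.50), Bcl2a1b (2.67), Bcl2a1d (2.50) and Tnfrsf1b (1.44). The 3 Bcl2a1 genes are near-identical copies whose reads the counting could split. Of 28 Fc and paired receptors 7 were higher and 5 lower, with Siglece (3.02) and Trem3 (2.77) higher.

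RNA of other cell types also differed between classes. Against C1q macrophages, 6 of 9 tested fibroblast and pericyte genes and 3 of 9 plasmacytoid dendritic cell genes were higher in nonclassical monocytes by edgeR, 1 of 9 of each by DESeq2 and none without the tumor term. Against classical monocytes, all 9 tested plasmacytoid dendritic cell genes were lower by edgeR, 2 by DESeq2 and none without the tumor term. All 4 tested T and NK genes were lower too, and all 4 tested erythroid genes were higher by edgeR. None of either list was called by DESeq2 or without the tumor term. In this comparison DESeq2 gave no adjusted p for 2781 of 6237 genes, and those count as not called. The 4 erythroid genes stayed higher without cells of 4 other-type genes and with the authors' corrected counts.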
